A study of Mus musculus with 36 samples.

Results

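Livers of mice with wild-type p53 were compared with the spleens and thymuses of the same genotype, for the genes that mark each organ, for a group of genes that the liver expresses before birth and in young animals, and for the genes of blood formation. The members are the 9 libraries of the single-end table titled wt xray, 3 livers, 3 spleens and 3 thymuses, of 36 libraries in the series. They were taken by their titles, with earlier results of these data known. In the main test the liver mean was set against the average of the spleen and thymus means, giving both lymphoid organs equal weight. Pairs of organs were also tested separately. The series sequenced total RNA of these 3 organs from mice with an intact p53 gene (wt) and from mice whose p53 lacks its C-terminus (d24), and its title names the liver and resistance to radiation as the questions behind that design. Values are in the deposited signal, which is reads scaled to a library size that is corrected for RNA composition.

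The 3 groups of 3 are wt liver, wt spleen and wt thymus, all entitled xray. The treatment field of the labels gives 2 Gy of x-rays and 3 h for the livers and thymuses but control for the 3 spleens, while the cell type field reads WT throughout. Groups follow the titles here. If the treatment field is the correct one, a difference of spleen from liver or from thymus cannot be told apart from one of treatment. The average of both lymphoid organs would then mix control spleens with irradiated thymuses. Cdkn1a, a gene that p53 induces after irradiation, was near the level of irradiated tissue in liver 3 and near that of untreated tissue in the other 8 libraries (values below), so xray stands here for what the title says. Reference groups are 3 d24 livers with their 3 spleens and 3 thymuses, also titled xray, in the same single-end table (treatment field: xray for spleen, control for liver and thymus), and, in a second, paired-end table, 3 wt libraries per organ without treatment and 3 per organ after x-rays. Age, sex, strain and the animal behind each library are not stated by any source used here. It is not said whether the 3 libraries of a group come from separate animals, so p-values measure only the spread between these libraries, which may in part be technical. In bulk tissue, fewer cells of a type and less RNA per cell cannot be told apart.

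Hepatocytes secrete most of the proteins of blood plasma, and they take up their full set of drug-metabolising, urea-cycle and bile acid enzymes around and after birth. The fetal liver makes alpha-fetoprotein (Afp), the fetal relative of albumin, and large amounts of the imprinted neighbours H19 and Igf2, and all 3 are silenced in mouse liver in the weeks after birth. The fetal liver is also the main site of blood formation, which moves to bone marrow and, in the mouse, stays active in the spleen, whereas the thymus is the organ where T cells rearrange their receptor genes.

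The start regions of 4 genes on which the results turn, a pair of hepatocyte genes and a pair of red cell genes, are shown with the letters that factors of each cell type recognise. Each is the window from 250 bases before to 50 bases after an annotated start, as given by RefSeq on GRCm38.p6, 5′ to 3′ on the plus strand, which is the strand of all 4 genes. Capitals mark a match to GTTAAT, the half-site of the hepatocyte factor HNF1, in the first pair, and a match to AGATAA, or to the same letters with T in place of the first A, which GATA factors recognise, in the second pair. All strings were searched on both strands, and overlap with another motif was not removed.
Afp: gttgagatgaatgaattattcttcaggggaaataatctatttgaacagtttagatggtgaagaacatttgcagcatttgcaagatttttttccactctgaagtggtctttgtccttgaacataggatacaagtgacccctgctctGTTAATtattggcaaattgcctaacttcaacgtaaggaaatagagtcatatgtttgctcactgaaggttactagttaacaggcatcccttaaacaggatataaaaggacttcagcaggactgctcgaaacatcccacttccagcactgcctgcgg
Alb: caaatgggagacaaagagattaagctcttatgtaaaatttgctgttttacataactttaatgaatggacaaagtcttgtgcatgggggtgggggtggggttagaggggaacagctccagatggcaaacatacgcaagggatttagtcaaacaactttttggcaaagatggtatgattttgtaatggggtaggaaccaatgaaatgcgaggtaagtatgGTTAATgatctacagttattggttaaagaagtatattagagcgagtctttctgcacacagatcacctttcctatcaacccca
Alas2: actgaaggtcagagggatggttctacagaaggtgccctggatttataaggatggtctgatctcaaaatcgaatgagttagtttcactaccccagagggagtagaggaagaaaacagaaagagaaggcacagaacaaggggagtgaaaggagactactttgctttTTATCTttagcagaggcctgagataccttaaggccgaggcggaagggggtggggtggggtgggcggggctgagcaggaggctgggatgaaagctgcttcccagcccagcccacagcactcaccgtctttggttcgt
Klf1: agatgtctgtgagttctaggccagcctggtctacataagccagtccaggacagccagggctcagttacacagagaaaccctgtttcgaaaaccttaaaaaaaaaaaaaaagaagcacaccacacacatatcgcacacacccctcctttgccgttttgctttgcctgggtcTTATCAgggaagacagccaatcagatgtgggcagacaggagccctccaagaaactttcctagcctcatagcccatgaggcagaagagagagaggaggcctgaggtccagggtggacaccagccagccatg
The Afp window is chr5:90490464-90490763, the Alb window chr5:90460620-90460919, the Alas2 window chrX:150547167-150547466 and the Klf1 window chr8:84901732-84902031. The capitals begin 105 bases before the start in Afp, 32 in Alb, 86 in Alas2 and 80 in Klf1. Among 27025 genes with a window, 8.24% held GTTAAT in at least 1 window and 21.0% held 1 of the GATA strings. Of the 26 plasma protein genes with a window, 10 held GTTAAT and 4 a GATA string. In the 3 red cell lists used below, a GATA string stood in 8 of 14, 6 of 11 and 7 of 13 genes with a window and GTTAAT in none. Of the 20 fetal and juvenile genes with a window, 2 held GTTAAT and 4 a GATA string. A match is a description of letters, not of binding, and windows of 1 gene can overlap.

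The 9 libraries held 21222134 to 28552492 gene reads, and 1 read was worth 0.0272 to 0.0828 units. The organs matched their labels: Alb took 8.60 to 12.5% of the signal of each liver, Hbb-b1 was the first gene of each spleen, and the thymocyte and thymic epithelial genes described below were high in each thymus. Replicates correlated at 0.935 to 0.963 in liver, 0.929 to 0.985 in spleen and 0.940 to 0.957 in thymus over log2 values. Liver 3 and spleen 3 stood apart. Spleen 3 carried genes of the exocrine pancreas that were at 0 in spleens 1 and 2 (Ctrb1 411 and Cela2a 310 units), and its level of Mki67, a marker of dividing cells, was 633 units against 3426 and 2586. Thymus 1 carried Ucp1, a brown fat gene, at 46.3 units. Xist was high in liver 2, spleen 2 and thymuses 1 and 3 (581 to 1090 units) and at or under 1.05 units in the other 5 libraries. The sexes are thus unevenly spread over organs. Key counts are given again without liver 3 and spleen 3, an alternative chosen after seeing the data.

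Of 15063 genes tested, 4333 (28.8%) were higher in liver than in the lymphoid organs and 4631 (30.7%) lower, at a Benjamini-Hochberg adjusted p under 0.05 in limma; such genes are called here. With plain CPM scaling (no composition factor) in place of the deposited one, the split was 2034 higher and 9322 lower, and the median of all genes moved from -0.09 to -1.24 on the log2 scale. Quantile scaling gave 3646 and 5846. So the direction of small differences rests on the scaling, and list counts are given under plain scaling too. Liver was higher than each lymphoid organ separately for 2964 genes (19.7%) and lower than each for 2302 (15.3%). Every liver lay above every lymphoid library for 3322 genes (22.1%) and below every one for 2691 (17.9%), so a lack of overlap is common. Between the lymphoid organs, 2921 genes (19.4%) were higher in spleen and 2546 (16.9%) higher in thymus, and plain scaling turned that split to 2369 and 4026.

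The 12 genes furthest above the lymphoid organs were all secreted plasma proteins: Alb, Ahsg, Apoa1, Serpina1d, Ttr, Serpina1a, Serpina1b, Pzp, Hpx, Apoa2, Serpina1c and Itih2. Alb (chr5:90460870-90476602), the main carrier protein of plasma, stood at 199915, 240206 and 148091 units in the livers, 5.46, 11.3 and 19.1 in the spleens and 2.06, 0.185 and 4.43 in the thymuses, a log2 difference of 15.30 ± 0.53 (SE; limma, Benjamini-Hochberg adjusted p = 1.04e-09). Ahsg, a secreted inhibitor of mineralisation, read 88612, 109496 and 75341 against 1.72, 5.76 and 9.12 in spleen and 0.761, 0.0309 and 1.86 in thymus. Every liver lay far above every lymphoid library for both genes. The serpin genes named here are near-identical copies between which reads may be split, so their separate values are uncertain.

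The 12 genes furthest below were mostly thymic or T cell genes: Prss16, Coch, Lef1, Rgcc, Cd28, Dnajc6, Cd5, Rag2, Cd6, Mns1, Cd247 and Ccr9. Prss16, a serine protease of the thymic cortex, was 0, 0.166 and 0 in liver, 1.53, 1.16 and 2.47 in spleen and 473, 404 and 432 in thymus, with a log2 difference of -5.80 ± 0.29 (SE; limma, Benjamini-Hochberg adjusted p = 1.93e-08). Coch was the spleen gene of the set, at 410.3, 479 and 342 units in spleen, 0.0657, 0.414 and 0.0603 in liver and 3.21, 2.16 and 1.83 in thymus. Groups of these genes thus differed in which lymphoid organ set the contrast, and each organ is given separately below.

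Among genes of hepatocyte identity, nearly all tested members were higher in liver. A gene that is near 0 in both lymphoid organs enters the test only through the liver and had to differ, so these counts describe the lists and support nothing further. All 32 plasma protein genes were called higher, as were 20 of 21 hepatic transcription factors, 22 of 22 genes of the urea cycle, amino acid and glucose metabolism, 14 of 15 of bile acid synthesis and transport and 17 of 19 of the adult detoxification list. Plain scaling left 32, 18 of 21, 21 of 21, 14 and 16 of 18, with 1 gene of the last list lower. The list medians were 12.09, 5.85, 9.16, 8.34 and 7.62 on the log2 scale, beside -0.09 for all genes. Where a group was at 0, a fold of 3 reads in place of 0 gave 7.06 for the transcription factors, 9.60 for bile acids and 9.13 for the adult list.

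Among secreted proteins, Apoh, a phospholipid-binding glycoprotein, read 3099, 3982 and 3461 in the livers and at most 0.376 in any lymphoid library (12.52 ± 0.26 log2). Plg, the precursor of plasmin, read 4163, 4497 and 3242, and Trf, the iron carrier transferrin, read 57142, 66808 and 41262. Trf was also present in spleen at 153, 143 and 182 and in thymus at 34.0, 22.9 and 21.1, so that its difference was 9.72 ± 0.21. Each of the 3 genes varied little between the livers beside its distance from the lymphoid libraries.

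The transcription factors of hepatocytes followed. Hnf4a, a nuclear receptor at the centre of the hepatocyte programme, was 631, 637 and 767 units in liver against 0.766, 1.45 and 0.669 in spleen and 1.14, 4.88 and 2.72 in thymus, a log2 difference of 8.34 ± 0.36 (SE; limma, Benjamini-Hochberg adjusted p = 4.91e-09). Creb3l3, a membrane-bound factor of the fasting response, was 343, 378 and 317, and Nr1i3, the receptor that senses foreign chemicals, was 109, 117 and 110.5 with no lymphoid library above 0.315. Nr1h4, the bile acid receptor, read 95.9, 101 and 83.6, Onecut2 78.3, 70.6 and 64.7 and Foxa3 77.0, 130.1 and 106. No liver overlapped a lymphoid library in any of these 6 genes, which held upward for 22.1% of all genes. The 1 member not called was Zhx2, a repressor of Afp after birth, at 18.1, 13.7 and 17.7 in liver, 8.01, 7.05 and 3.93 in spleen and 29.3, 18.7 and 18.2 in thymus.

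In metabolism, Otc, the urea-cycle enzyme ornithine transcarbamylase, read 667, 771 and 1086 units in liver and at most 0.0629 elsewhere. Hpd, an enzyme of tyrosine breakdown, read 1101, 1033 and 1474. G6pc, which releases glucose from the liver, read 607, 478 and 564 (10.04 ± 0.28 log2). In each case all lymphoid libraries were close to 0. Slc10a1 and Slco1b2, which import bile acids from blood, read 582, 834 and 509 and 1087, 1213 and 1083, and Abcb11, the pump that exports them to bile, read 591, 444 and 359. Cyp7b1, of the alternative bile acid route and a male-biased gene, was the 1 member not called, at 0, 2.90 and 1.51 in the livers and 0.319, 1.32 and 1.09 in the spleens.

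Of the adult detoxification genes, Cyp2e1, which oxidises ethanol and small solvents, read 4432, 5825 and 3746 in the livers and at most 0.418 in the lymphoid libraries, a log2 difference of 12.75 ± 0.25 (SE; limma, Benjamini-Hochberg adjusted p = 7.05e-11). Cyp3a11, the broad drug-metabolising enzyme, read 2182, 2203 and 2299.9, Ugt2b1, which adds glucuronic acid, 186, 246 and 163 and Sult2a8, a sulphotransferase, 281, 363 and 726. Cyp2d9, a male-biased enzyme, read 127, 149 and 257. The 2 members not called were Cyp7b1 and Oat, and Elovl3, Slco1a1 and Mup20 did not reach the filter of 1 unit in 3 libraries. Cyp4a12a and Hsd3b5 were not matched in this table. These genes separated liver from the lymphoid organs, but their summed level differed between the livers of the 2 tables, as given below.

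The fetal and juvenile list holds 28 genes, mostly imprinted or oncofetal, and 26 passed the filter. In the wt livers 21 of 26 were called higher than in the lymphoid organs and 2 lower, with a median of 2.95 on the log2 scale beside -0.09 for all genes (3.01 with 3 reads in place of a group at 0). Under plain scaling it was 16 higher and 3 lower, and without liver 3 and spleen 3 it was 22 and 2. Of all genes 28.8% were higher and 30.7% lower, and under plain scaling 2034 were higher and 9322 lower of 15140. A member near 0 in both lymphoid organs passed the filter only through the liver and had to differ. The list was also chosen with earlier results of these data known, so its counts describe it and support nothing further. Summed over the list, the livers held 24178 to 56666 units, or 1.40 to 3.00% of all signal, the spleens 2907 to 3492 and the thymuses 681 to 809.8.

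Afp (chr5:90490714-90508907) read 8607, 6593 and 3850.1 units in livers 1 to 3, 1.12, 0.598 and 1.92 in the spleens and 0.380, 5.19 and 3.57 in the thymuses. Every liver was above every lymphoid library, and the log2 difference was 11.48 ± 0.52 (SE; limma, Benjamini-Hochberg adjusted p = 8.31e-09). H19 (chr7:142575530-142578146), a long noncoding RNA that limits growth, read 27554, 34715 and 17137 in liver, 6.32, 27.1 and 14.6 in spleen and 114, 52.7 and 70.0 in thymus, a difference of 9.60 ± 0.40 (SE; limma, Benjamini-Hochberg adjusted p = 3.99e-09). Thymus was above spleen for H19 in all libraries (-2.41 ± 0.46 for spleen against thymus). Igf2 (chr7:142650768-142666816), the fetal growth factor next to it, read 10742, 12613 and 603 in the livers, with liver 3 far below livers 1 and 2, and 15.8, 31.0 and 17.5 and 18.7, 20.3 and 23.4 in the lymphoid organs. Its difference was 7.68 ± 0.77 (SE; limma, Benjamini-Hochberg adjusted p = 6.41e-06), and without liver 3 it was 9.11.

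Other genes of fetal growth, imprinted except for Gpc3, were also higher. Gpc3, a heparan sulphate proteoglycan that restrains growth, read 254, 200.3 and 225 in liver, 9.57, 22.6 and 1.97 in spleen and 0, 0.0309 and 0.709 in thymus (6.56 ± 0.58 log2). Peg3, a paternally expressed zinc-finger factor, read 159, 126 and 96.4 in liver, 10.5 ± 9.05 (mean and SD, n = 3) in spleen and 0.0815 to 3.55 in thymus (5.37 ± 0.78). Meg3, a maternally expressed noncoding RNA, read 67.5, 68.3 and 31.7 against 1.18 to 6.92 elsewhere (4.09 ± 0.46), and Mest read 172, 160.4 and 137 against 6.33 to 29.4 (3.31 ± 0.25). Cdkn1c, an imprinted inhibitor of the cell cycle, read 144, 101 and 70.9 in liver against 5.26 to 22.9 (2.99 ± 0.29). No liver overlapped a lymphoid library for any of these 5 genes, which held upward for 22.1% of all genes. Grb10, an adaptor that damps growth factor signalling, read 367, 367 and 163 in liver (3.34 ± 0.38). Rian (3.62 ± 0.43), Plagl1 (2.42 ± 0.44), Zim1 (2.90 ± 0.61) and Dlk1 (1.33 ± 0.48) were also called, at no more than 26.3 units in any liver. Dlk1, a surface protein of hepatoblasts, reached only 6.89, 3.97 and 1.99 units and was not called without liver 1 or 2, spleen 1 or 3 or thymus 1 or 3 (0.95 to 1.32).

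A pair of metabolic members of the list was also higher. Slc38a4, an imprinted amino acid transporter, read 843, 822 and 983 (8.56 ± 0.39), and Lpl, lipoprotein lipase, which the liver makes before weaning, read 576, 589 and 560.2 against 15.1 to 38.2 in the lymphoid libraries (4.66 ± 0.24). The RNA-binding proteins Igf2bp2 (1.72 ± 0.31) and Igf2bp3 (0.88 ± 0.18) differed by less, plain scaling gave 0.54 and -0.38 for them, and Igf2bp3 overlapped between liver (85.0, 83.2 and 74.2) and thymus (76.8, 74.9 and 80.9). Igf2bp1 and Lin28b, which mark the fetal stage, did not reach the filter and stood at most at 0.248 and 0.362 in the livers. Ndn, Hmga2 and Prtg were not called. The 2 genes called lower were Cd24a, a surface protein that red cell precursors and immature lymphocytes carry, at 3221, 2568 and 2706 in spleen and 89.4, 74.0 and 75.7 in liver, and Scd2, a desaturase, at 292, 279 and 294 in thymus and 37.6, 25.8 and 32.4 in liver. Cd24a thus tracked spleen, and Scd2 thymus.

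**Figure D1:**
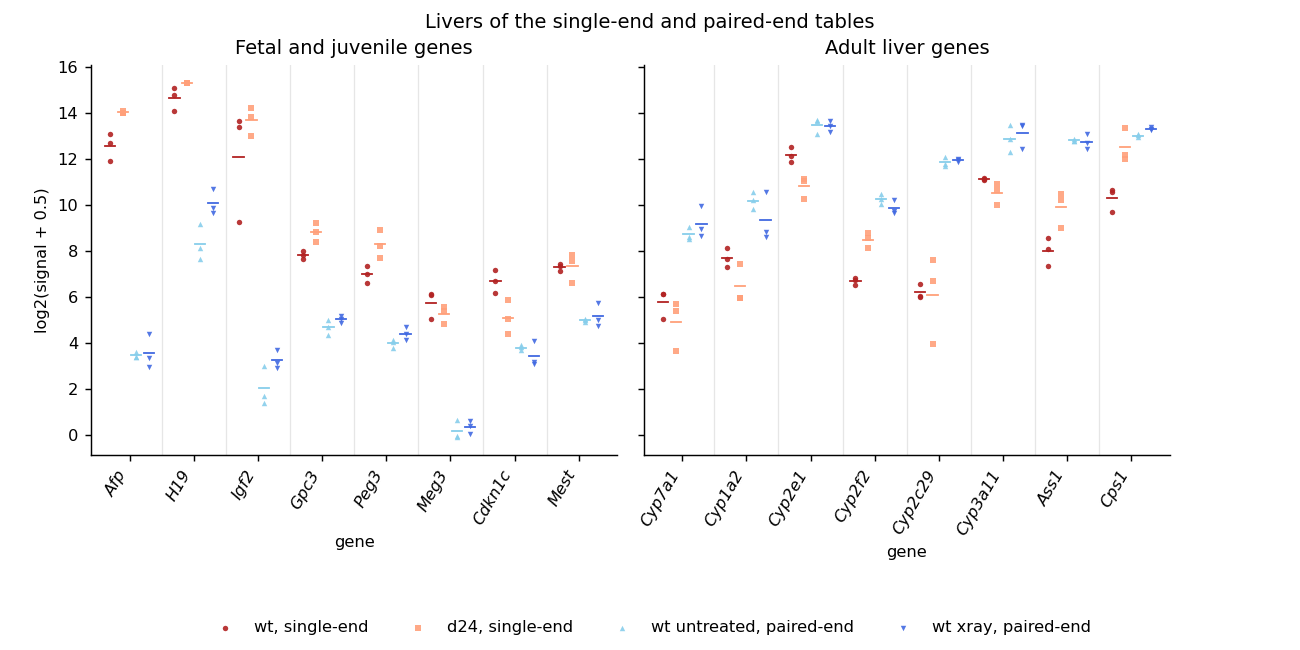
Fetal and juvenile genes (left) and adult hepatic genes (right) in 4 groups of 3 livers: wt and d24 of the single-end table and wt untreated and wt xray of the paired-end table. The y axis is log2(signal + 0.5), points are libraries and ticks are means; the tables were normalised separately. Afp lies at 3850.1 to 8607 units in the single-end wt livers and near 12 units in the paired-end wt livers after x-rays, while Cyp7a1 and Ass1 lie lower in the single-end livers.

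The wt livers of the paired-end table carried far less of these RNAs. The tables were normalised separately, so levels are set side by side without a test. Afp read 10.4 ± 0.860 (SD, n = 3) in untreated and 12.2 ± 6.79 in irradiated paired-end wt livers, H19 345 ± 194 and 1119 ± 437, Igf2 4.09 ± 2.93 and 9.21 ± 2.74, and Gpc3 25.4 ± 5.67 and 32.0 ± 3.62. The single-end d24 livers were like the single-end wt livers or above them, with Afp at 16366, 17266 and 16105, H19 at 39649.8, 39690.0 and 40436 and Igf2 at 8062, 14501 and 18649 units. Over the 25 members that both tables hold, the sum was 24177 to 56663 units in the single-end wt livers, 67721 to 80054 in the d24 livers, 2763 to 3104 in untreated and 3508 to 4692 in irradiated paired-end wt livers. Both single-end genotypes thus lay above both paired-end groups, and the tables also differ in library type, whose part in this was not tested.

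The summed signal of the adult list ran the other way between the tables. Over the 22 members that both tables hold, its sum was 11719 to 16936 units in the single-end wt livers and 10171 to 11361 in the d24 livers, against 41193 to 45271 and 40349 to 48938 in the untreated and irradiated paired-end wt livers. The genes named in the rest of this paragraph were chosen after their values were seen. Cyp7a1, the rate-limiting enzyme of bile acid synthesis, read 68.0, 69.9 and 32.0 in the single-end wt livers and 620.3 ± 308 (SD, n = 3) in the irradiated paired-end livers. Ass1, of the urea cycle, read 266, 159 and 370.1 against 6877 ± 1528, Cps1, its first enzyme, 1579, 827 and 1485 against 10088 ± 459.8, and Cyp2f2, a marker of hepatocytes around the portal vein, 90.3, 107 and 113 against 943 ± 210.2. Every single-end wt liver lay below every irradiated paired-end wt liver for each of these 4 genes. The urea, amino acid and glucose list summed to 17099 to 22412 units in the single-end wt livers and 25623 to 48227 in the d24 livers. Untreated and irradiated paired-end wt livers held 38140 to 40407 and 42289 to 49646, so the d24 livers overlapped both.

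Within the paired-end table, the same contrast of irradiated wt liver against both lymphoid organs called 6199 genes higher (40.6%) and 6537 lower (42.8%) of 15257. There, 22 of 22 tested adult genes were higher, with a median of 8.68, and 16 of 20 tested fetal and juvenile genes were higher and 4 lower, with a median of 1.73 beside -0.05 for all genes. Afp differed by 2.23 ± 0.27 there and by 11.48 ± 0.52 in the single-end table, and Igf2 by 0.79 ± 0.20 (-0.43 under plain scaling) and 7.68 ± 0.77. H19 differed by 7.75 ± 0.24 and 9.60 ± 0.40. The difference between the tables was not tested. Of 14460 genes tested in both tables, 3828 were higher in both, which is 90.9% of the single-end and 63.6% of the paired-end genes called higher. Lower in both were 3851 genes, 85.6% and 64.2%. Opposite calls numbered 102 among the single-end genes called higher and 135 among those called lower.

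**Figure D2:**
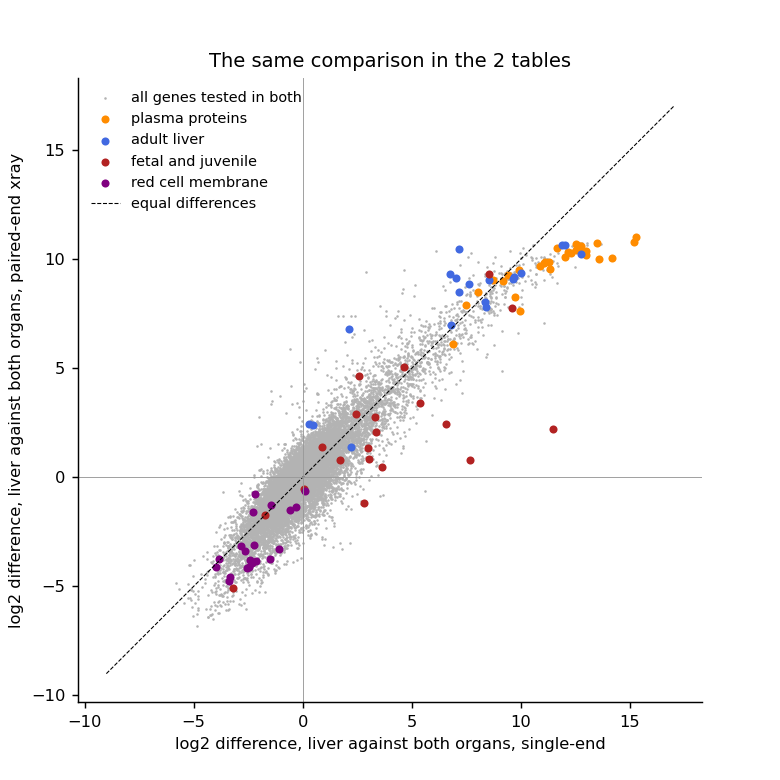
Log2 difference of wt xray liver against both lymphoid organs in the single-end table (x axis) and the paired-end table (y axis), 1 point per gene tested in both (14460 genes), with 4 lists in colour and the line of equality dashed. Plasma protein genes lie high in both tables, below the line at the upper end, adult genes lie on both sides of it (Cyp2e1 at 12.75 against 10.21), and several fetal genes, Afp (11.48 against 2.23) among them, lie well below it.

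Among genes of globin and heme synthesis, spleen stood far above both other organs, liver was intermediate and thymus low. Of all genes tested, 24.5% were higher and 24.9% lower in liver than in spleen, and 30.8% higher and 29.0% lower than in thymus. Of 14 tested members, all 14 were lower in liver than in spleen and 13 were higher in liver than in thymus, with 1 lower. Medians were -2.88 and 2.41 beside -0.08 and -0.00 for all genes. Under plain scaling the counts were 14 lower than in spleen and 7 higher than in thymus, and without liver 3 and spleen 3 they were 13 and 12. Against the average of both lymphoid organs these opposite differences largely cancelled, with 3 higher and 7 lower. Summed signal was 36818 to 56964 units in spleen, 1997 to 7391 in liver and 498 to 536 in thymus. Hbb-b1, an adult beta-globin gene outside the list and its sum, read 5780.3, 5169.6 and 874 in liver, 27325, 26947 and 87484 in spleen and 189, 138 and 120.0 in thymus, and is named here after its values were seen.

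Alas2, which makes the first step of heme synthesis in red cells, read 424, 323 and 159 in liver, 2562, 2390.4 and 3647 in spleen and 16.6, 11.1 and 6.85 in thymus. The 3 organs did not overlap, and liver differed by -3.33 ± 0.38 (SE; limma, Benjamini-Hochberg adjusted p = 2.16e-05) from spleen and by 4.63 ± 0.38 (SE; limma, Benjamini-Hochberg adjusted p = 1.15e-06) from thymus. Hba-a1 and Hba-a2, the near-identical adult alpha-globin genes whose reads may be split, read 1751, 1384 and 112 and 4138, 3429 and 597 in the livers, 8575, 8304 and 12788 and 21530.0, 18470.2 and 34069 in the spleens. Liver 3 was the lowest liver for both. Hbb-bs, an adult beta-globin gene that shares reads with a copy, read 8.47, 9.11 and 3.80 in liver, 33.8, 38.2 and 88.5 in spleen and 0.136, 0.463 and 0.0886 in thymus. The embryonic globins Hbb-y and Hba-x were listed at 0 in all 3 livers, which allows up to 3 reads in each, and did not reach the filter.

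The last enzyme of heme synthesis was in the same order. Fech, which inserts the iron, read 274, 277 and 279.7 in liver, 1531, 1221 and 1339.8 in spleen and 35.8, 34.7 and 27.0 in thymus. Slc25a37, the mitochondrial iron importer of red cell precursors, was the 1 gene lower in liver than in thymus, at 52.9, 53.8 and 22.9 against 89.3, 83.4 and 76.8 (-1.03 ± 0.32) and 2164, 1842 and 1169 in spleen. It was no longer called without liver 3 (-0.63) or without thymus 1 (-0.98). Alad, Cpox and Fech, which liver also uses for its own heme enzymes, were the 3 genes called higher in liver than in the average of both organs (1.50 ± 0.36, 0.88 ± 0.33 and 0.39 ± 0.15), but plain scaling gave 0.26, -0.39 and -0.87 and the plain means of the organs -0.43, -0.67 and -1.33. Cpox also lost its call without any 1 of the livers, without spleen 2 or 3 and without thymus 1 or 2 (largest limma, Benjamini-Hochberg adjusted p = 0.144), and Fech without any 1 of the livers, without spleen 2 and without thymus 2 or 3 (largest 0.101).

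The red cell membrane list had the largest median distance between liver and spleen of the 3 red cell lists. All 20 genes were lower in liver than in spleen, with a median of -6.57, under the deposited and under plain scaling. Against thymus, 12 were higher in liver, or 8 with 3 lower under plain scaling, with a median of 1.96. Slc4a1, the anion exchanger band 3, read 74.2, 68.1 and 13.6 in liver, 6610.3, 5526 and 2788 in spleen and 0.435, 1.91 and 11.1 in thymus, and thymus 3 (11.1 units) came close to liver 3 (13.6). Its difference from spleen was -6.81 ± 0.84 (SE; limma, Benjamini-Hochberg adjusted p = 4.25e-05). Ermap and Epb42, of the red cell surface and its skeleton, read 1045, 797 and 428 and 705, 655 and 450.4 in spleen and at most 12.1 and 7.37 in the livers. These 3 genes, with Ngp and Trim10, were also among the 6 furthest above thymus in spleen, Slc4a1 by 10.62 ± 0.84.

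The regulators of red cell development were lower in liver than in spleen for 16 of 16 genes, with a median of -4.61. Against thymus 6 were higher in liver and 7 lower, with a median of 0.08, or 3 and 8 with a median of -1.11 under plain scaling, which left all 16 lower than in spleen. Gata1, the factor that directs red cell and platelet lineages, read 1.12, 2.90 and 2.35 in liver, 235, 168 and 215 in spleen and 0, 4.85 and 1.36 in thymus, with a difference from spleen of -6.35 ± 0.69 (SE; limma, Benjamini-Hochberg adjusted p = 1.51e-05). Klf1, the activator of beta-globin, read 1.44, 3.64 and 4.52, 303, 238 and 252 and 0.0272, 0.617 and 0.236, and Tal1 read 9.26, 8.78 and 3.38, 626, 448 and 399 and 1.11, 0.617 and 3.93. The livers overlapped the thymuses for Gata1 and not for Klf1. Ldb1, a general cofactor of these factors, was the 1 regulator lower in spleen than in thymus (-0.66 ± 0.18), a call lost without spleen 2 (-0.59) or thymus 1 (-0.52). Sox6 was the 1 not called against the average of both organs, at 17.1, 17.4 and 20.6 in liver.

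**Figure D3:**
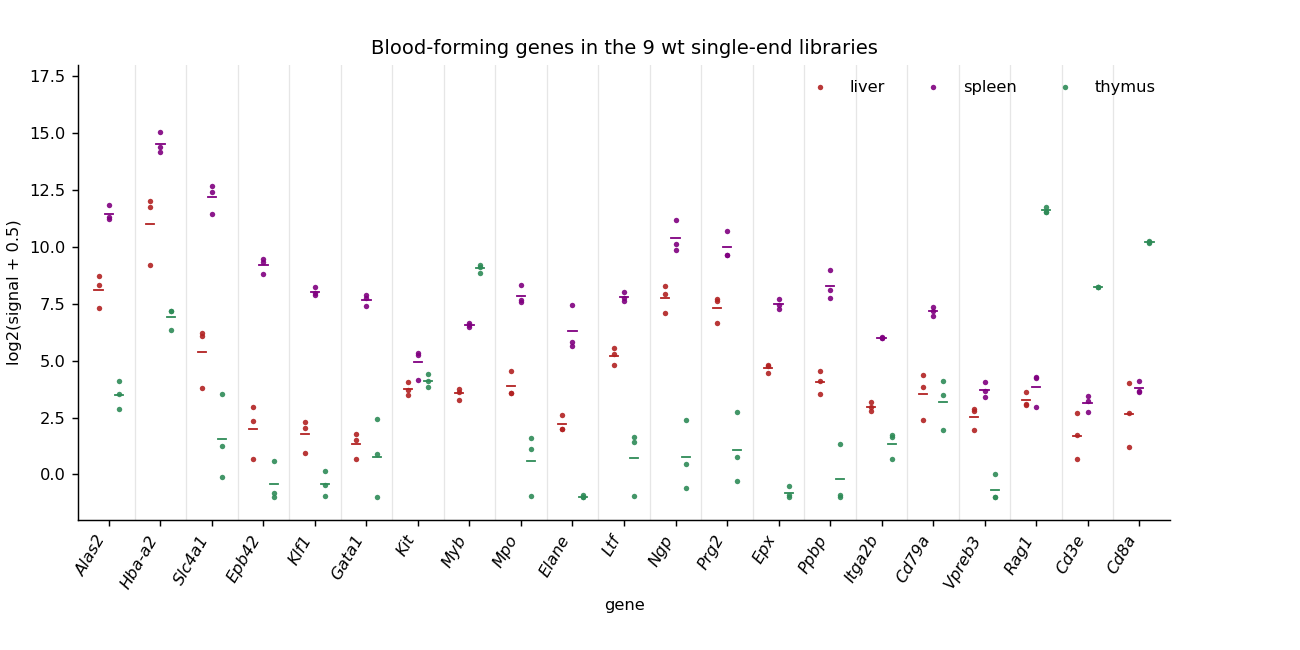
Blood-forming and immune genes (21 genes) in the 9 single-end wt libraries, with y axis log2(signal + 0.5), 1 colour per organ, points for libraries and ticks for means. Red cell and granule genes are highest in spleen, with liver between spleen and thymus except for Gata1, where liver and thymus overlap (Alas2 159 to 424 units in liver), and T cell genes are highest in thymus.

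Stem and progenitor genes were mostly lower in liver than in spleen and split against thymus. Of 20 tested genes 11 were called lower than in the average of both organs and 3 higher (13 and 1 under plain scaling). Against spleen 13 were lower and 1 higher, with a median of -1.63, and against thymus 8 were lower and 9 higher, with a median of 0.89. Plain scaling gave 15 and 1 against spleen and 9 and 3 against thymus, with a median of -0.36 for the last. Among all genes the shares were 30.7% lower and 28.8% higher than in the average, 24.9% and 24.5% against spleen and 29.0% and 30.8% against thymus. Kit, the stem cell factor receptor, read 16.5, 12.7 and 10.9 in liver, 39.9, 38.0 and 17.5 in spleen and 14.1, 16.6 and 20.8 in thymus, a difference of -0.76 ± 0.30 (SE; limma, Benjamini-Hochberg adjusted p = 0.047). Liver 1 (16.5 units) lay between the thymuses, and the call was lost without liver 2 or 3, spleen 1 or 2 or thymus 2 or 3 (largest limma, Benjamini-Hochberg adjusted p = 0.156). Myb, a factor of immature blood cells, read 9.32, 11.9 and 13.0, 94.3, 101 and 89.6 and 458, 596 and 562 (-4.26 ± 0.16), and Cd34, also carried by endothelium, read 9.13, 14.8 and 7.48, 26.9, 36.0 and 30.2 and 32.9, 20.5 and 24.4 (-1.43 ± 0.26). Runx1 (-3.83 ± 0.26), Gfi1 (-4.04 ± 0.35) and Slamf1 (-4.48 ± 0.39) were lowest in liver and highest in thymus in all libraries.

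The 3 progenitor genes called higher in liver are not specific to blood cells. Hlf read 70.3, 66.4 and 87.2 in liver and at most 3.18 elsewhere (5.04 ± 0.39); it is also a clock-controlled factor of hepatocytes. Erg (1.26 ± 0.41) and Meis1 (0.80 ± 0.28) are also expressed by endothelium and by stroma. Erg was not called without any 1 of the livers (1.19 to 1.30) and Meis1 not without liver 1 or 2, spleen 1 or thymus 2 (0.73 to 0.80), and plain scaling gave 0.09 and -0.41. Hoxa9 and Hoxa10 did not reach the filter and were at most 0.0828 in the livers. Flt3 (-1.87 ± 0.52, not called without liver 1) and Lyl1 (-1.26 ± 0.31) were lower in liver, and Mecom, Gata2, Procr, Fgd5, Spi1 and Cebpe were not called.

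Granule genes of neutrophils separated the 3 organs. Of 14 secondary granule genes, 12 were lower in liver than in spleen and 12 higher than in thymus, with medians of -2.30 and 4.23. Under plain scaling the counts were 14 and 11. Without liver 3 and spleen 3 the counts were 10 and 12. Beside them, 24.9% of all genes were lower in liver than in spleen and 30.8% higher than in thymus. Ngp, the neutrophilic granule protein, read 135, 244 and 309 in liver, 948, 1134 and 2343 in spleen and 0.163, 0.895 and 4.70 in thymus, with a difference of 7.01 ± 0.63 (SE; limma, Benjamini-Hochberg adjusted p = 2.62e-06) from thymus. Ltf, lactoferrin, read 27.5, 46.1 and 38.9, 215, 261 and 196 and 0.0272, 2.19 and 2.60, and Camp, the cathelicidin, 42.9, 51.7 and 50.5, 183, 219.7 and 931 and 0.0272, 2.19 and 0.236. The 3 organs did not overlap for these 3 genes. S100a8 read 52.4, 165 and 173 in liver and 464, 549 and 1709 in spleen, and S100a9 120.3, 229 and 291 and 677, 911 and 2617, so that liver 1 was lowest of the livers and spleen 3 highest of the spleens.

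Of 9 primary granule genes, 7 were lower in liver than in spleen and 5 higher than in thymus (8 and 4 under plain scaling). For all genes these shares were 24.9% and 30.8%. Mpo, myeloperoxidase, read 11.6, 11.4 and 22.7 in liver, 191, 204 and 319.8 in spleen and 0.0272, 1.67 and 2.51 in thymus (-3.96 ± 0.57 against spleen). Elane, neutrophil elastase, read 3.55, 3.48 and 5.67, 50.0, 57.0 and 173 and 0, 0.0309 and 0 (-4.10 ± 0.47 against spleen). Spleen 3 held the highest value of the spleens in both. The 1 gene of this list called higher in liver against the average of both organs was Hp, haptoglobin, at 5352, 7059.9 and 7664 units, which is also a hepatocyte acute-phase protein.

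Eosinophil and platelet-lineage genes were also mostly highest in spleen. Of 13 eosinophil and mast cell genes, 11 were lower in liver than in spleen and 7 higher than in thymus (12 and 6 under plain scaling). Epx, eosinophil peroxidase, read 21.9, 26.4 and 27.6 in liver, 155, 175 and 207 in spleen and 0, 0.0309 and 0.207 in thymus, and Prg2, the major basic protein, 101, 209 and 196, 809, 810.2 and 1647 and 0.326, 1.20 and 6.26. Ear1 shares reads with close copies, and its values are uncertain. Of 15 megakaryocyte genes, 14 were lower in liver than in spleen and 8 higher than in thymus (14 and 3 under plain scaling). Beside both lists, 24.9% of all genes were lower than in spleen and 30.8% higher than in thymus. Gp5 (-3.92 ± 0.57 against spleen) and Gp6 (-2.94 ± 0.40 against spleen), platelet glycoproteins, were at most at 1.63 and 0.579 units in liver. Clec1b read 15.2, 29.0 and 80.1 in liver and 26.9, 25.0 and 77.2 in spleen, and Kupffer cells also carry it.

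Granule genes also differed between the groups of livers, which is described here without a test. The secondary granule list summed to 509.8 to 1130.4 units in them, against 65.2 to 1297 in the single-end d24 livers, where Lcn2, a hepatic acute-phase gene, made up most of the highest value, and 27.2 to 49.6 in the 6 paired-end wt livers. Ngp was 0.187, 15.9 and 2.18 in the d24 livers and 6.07 ± 1.86 (SD, n = 3) in the irradiated paired-end wt livers. The eosinophil and mast cell list summed to 218 to 419 units in the single-end wt livers, 41.0 to 69.2 in the d24 livers and 7.82 to 12.8 in the paired-end wt livers. In the paired-end contrast, 13 of 14 secondary granule genes were lower in liver than in the average of both organs and none higher, where the single-end contrast called 6 higher and 1 lower. The single-end split is not stable to scaling, since plain scaling gave 1 higher and 1 lower. Among all genes 42.8% were lower in the paired-end contrast, and 28.8% were higher and 30.7% lower in the single-end one.

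B cell genes were low in liver and highest in spleen. Of 15, 13 were lower in liver than in spleen and 4 were higher in liver than in thymus with 1 lower. Plain scaling gave 14 lower than in spleen and 1 higher and 6 lower than in thymus. Among all genes 24.9% were lower than in spleen, and 30.8% were higher and 29.0% lower than in thymus. The 4 B cell genes higher than in thymus are thus near the share of all genes. With plain scaling 8175 of 15140 genes were lower than in spleen and 8856 lower than in thymus. Cd79a, the signalling chain of the B cell receptor, read 4.73, 13.7 and 20.2 in liver, 126, 162 and 147 in spleen and 16.6, 10.8 and 3.40 in thymus. Its difference from spleen was -3.65 ± 0.56 (SE; limma, Benjamini-Hochberg adjusted p = 0.000241), and the livers overlapped the thymuses. Ms4a1, the antigen CD20, read 1.58, 6.79 and 5.43, 134, 172 and 97.1 and 13.0, 9.20 and 5.26. Cr2, a complement receptor of mature B cells, was at 0 in all 3 livers and read 14.3, 15.5 and 6.02 in spleen. For each of these 3 genes no liver reached a spleen.

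The list of early B cell and receptor recombination genes was split between the lymphoid organs. Of 11 tested, 5 were higher in spleen than in thymus and 6 lower. In liver, 5 were lower than in spleen and none higher, and 4 were higher and 6 lower than in thymus, or 11 lower than in spleen and 2 higher and 6 lower than in thymus under plain scaling. Among all genes 19.4% were higher and 16.9% lower in spleen than in thymus. For liver the shares were 24.9% lower than in spleen, and 30.8% higher and 29.0% lower than in thymus. Vpreb3, of the pre-B cell receptor, was highest in spleen, at 3.41, 6.87 and 6.39 in liver, 10.2, 12.4 and 16.2 in spleen and 0, 0 and 0.502 in thymus. The recombination enzymes were highest in thymus. Rag1, which cuts the receptor genes, read 7.88, 11.8 and 8.02 in liver, 18.9, 18.6 and 7.32 in spleen and 3010.0, 3432 and 3001 in thymus, and liver and spleen overlapped (-4.47 ± 0.28 against the average of both organs). Dntt, which adds bases at the cut ends, read 4.99, 3.56 and 10.5, 6.83, 11.0 and 21.0 and 884, 989 and 969. Rag2 (-5.17 ± 0.35), Lef1 (-5.43 ± 0.38), Sox4 (-1.88 ± 0.22) and the interleukin receptor Il7r (-2.03 ± 0.24) were also lower in liver. In the d24 livers Rag1 read 0.374, 0.0801 and 0.0702 and Cd79a 0.0623, 0.961 and 0.843 units, below all 3 wt livers for both genes.

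Thymocyte genes were lower in liver almost without exception. Of 23, 22 were lower in liver against the average of both organs, 23 lower than in thymus and 14 lower than in spleen, where 1 was higher. Plain scaling gave 22, 23 and 19. Among all genes 30.7%, 29.0% and 24.9% were lower in these comparisons. Cd3e, of the T cell receptor complex, read 1.12, 2.81 and 5.97 in liver, 9.03, 10.4 and 6.23 in spleen and 303, 303 and 304 in thymus, a difference of -3.99 ± 0.37 (SE; limma, Benjamini-Hochberg adjusted p = 3.36e-06). Satb1, a chromatin organiser of thymocytes, read 4.40, 6.21 and 5.61, 21.9, 24.2 and 14.9 and 1589, 1657 and 1618, and Cd4 10.7, 5.38 and 8.32, 17.4, 20.6 and 13.4 and 715, 694 and 592. Tcf7 did not separate liver from spleen, at 33.4, 37.3 and 29.9 and 29.9, 44.2 and 18.7 units.

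Thymic epithelial genes were highest in thymus. Of 15, 14 were lower in liver than in thymus and 11 lower than in the average of both organs, or 15 and 14 under plain scaling. Genes such as Foxn1 passed the filter only through the thymus and had to differ, so these counts, too, describe the list and support nothing further. Not all members were near 0 in liver: Ly75, an endocytic receptor also of dendritic cells, read 9.85, 8.28 and 5.19 in liver and 18.7, 32.1 and 40.6 in thymus, and Ly75, Dll4 and Epcam were not called against the average of both organs. Psmb11, the proteasome subunit of cortical epithelium, read 85.0, 87.1 and 105 in thymus, and Krt5, a keratin of medullary epithelium, 50.5, 80.8 and 36.3. Foxn1, the factor that makes an epithelial cell thymic, read 31.4, 26.3 and 24.1 in thymus and 0 in all 6 other libraries. Krt8, a keratin that hepatocytes share, was the 1 gene called higher in liver (3.30 ± 0.36), at 178, 146 and 133 in liver and 148, 142 and 167 in thymus. Tbata, Rag1, Prss16, Krt17 and Psmb11 were among the 6 genes furthest above spleen in thymus.

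**Figure D4:**
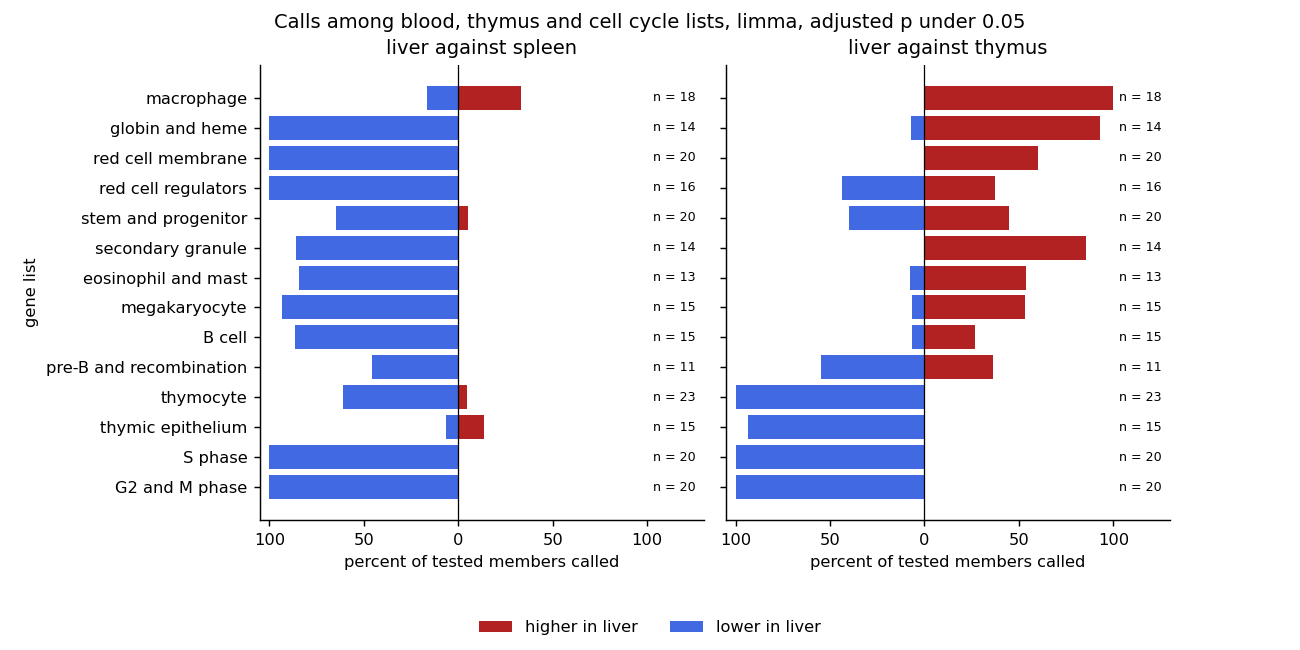
Percent of tested members called higher (right) or lower (left) in wt liver, against spleen and against thymus, for 14 lists with the number tested beside each. Red cell lists are lower than in spleen throughout (20 of 20 membrane genes), while the membrane genes are higher than in thymus for 12 of 20 and the regulators split, and thymocyte genes are lower than in thymus (23 of 23).

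Macrophage genes were mostly higher in liver than in thymus, with calls in both directions against spleen. Of 18, 15 were called higher than in the average of both organs and none lower, 18 higher than in thymus, and 6 higher and 3 lower than in spleen. Plain scaling gave 8 higher and 3 lower against both organs, 13 and 1 against thymus and 2 and 5 against spleen. Among all genes 28.8% were higher against both organs, 30.8% against thymus and 24.5% against spleen, where 24.9% were lower. The list held 0.155 to 0.356% of all signal in liver and 0.234 to 0.357% in spleen, so these organs overlapped. Vsig4 and Clec4f, carried by the Kupffer cells that line liver sinusoids, read 120.5, 163 and 304 and 257, 229 and 399.9 units in liver, and no lymphoid library passed 0.0418 and 1.85. Their differences were 8.49 ± 0.35 and 8.57 ± 0.45. Marco, a scavenger receptor, read 324, 311 and 982 in liver and 87.8, 98.0 and 176 in spleen, and Cd5l 331, 371 and 1309.9 and 38.2, 39.3 and 295, both highest in liver 3 and in spleen 3. Hmox1, which degrades heme, read 182, 165 and 267 in liver and 279, 275 and 377 in spleen, where a call of lower was lost without liver 1 or 2 or any 1 lymphoid library, and the iron exporter Slc40a1 was not called between them, at 535, 597 and 795 and 489.8, 484 and 666.

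Genes of other resident cells marked each organ. Of 17 tested genes of liver sinusoidal, stellate and bile duct cells, 14 were higher in liver and 1 lower, with a median of 4.46 (13 and 1 of 18 under plain scaling). Clec4g and Lyve1, of sinusoidal endothelium, read 94.9, 115 and 85.5 and 80.5, 66.1 and 68.1, and Colec10 and Hand2, of stellate cells, 184, 230.4 and 146 and 16.3, 20.8 and 17.3. Of 11 spleen stroma genes, 9 were lower in liver and 2 higher (9 and 1 under plain scaling). Among all genes 28.8% were higher and 30.7% lower. A gene near 0 outside 1 organ, such as Colec10 or Tlx1, passed the filter only through that organ and had to differ. The counts of both lists thus describe the lists and support nothing further. Tlx1, required to form a spleen, read 21.0, 27.3 and 26.5 in spleen and at most 0.0828 elsewhere, and Cxcl13, which attracts B cells, read 71.3, 71.6 and 76.8 in spleen and 0.0657, 0.331 and 3.50 in liver. Tcf21, a factor of mesenchyme in both organs, was 1 of the 2 higher in liver (2.74 ± 0.30). Ccl21a has near-identical copies and its values are uncertain.

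All 20 S phase genes and all 20 G2 and M phase genes were lower in liver than in the average of both lymphoid organs, with medians of -2.16 and -2.69, also under plain scaling and without liver 3 and spleen 3. Of all genes 30.7% were lower, and 9322 of 15140 under plain scaling. Pcna, the replication clamp, read 42.1, 57.0 and 44.3 in liver, 362, 257 and 303 in spleen and 235, 191 and 230.4 in thymus (-2.43 ± 0.17). Ccna2, cyclin A2, read 52.7, 71.9 and 48.1, 725, 552 and 539 and 226, 237 and 259 (-2.73 ± 0.17). No liver overlapped a lymphoid library in either gene, which held downward for 17.9% of all genes. Spleen was above thymus for 10 of the S phase genes and 8 of the G2 and M phase genes, or 16 and 13 without liver 3 and spleen 3 and 4 and 5 under plain scaling. Of all genes 19.4% were higher in spleen, and 2369 of 15140 under plain scaling.

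**Figure D5:**
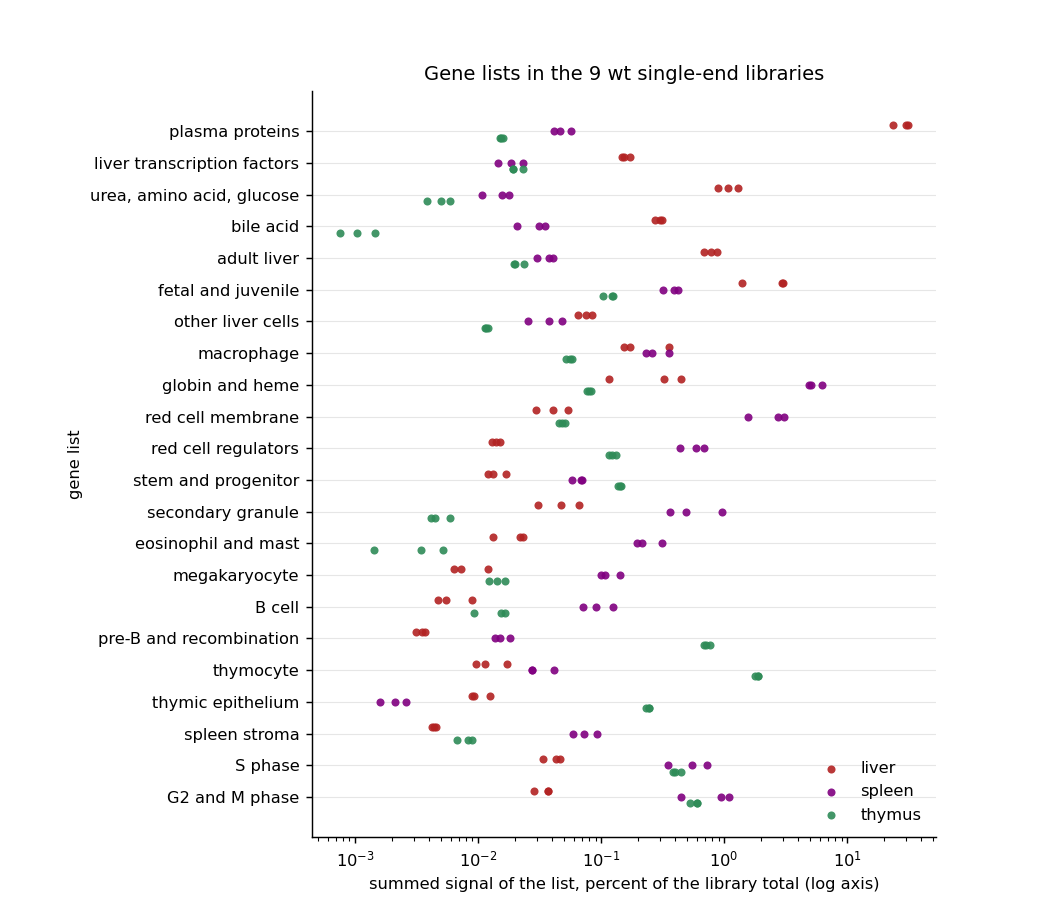
Summed signal of 22 gene lists as a percent of all signal in each of the 9 single-end wt libraries, on a log axis, with 1 colour per organ. Liver holds 1.40 to 3.00% of its signal in the fetal and juvenile list against 0.104 to 0.425% in the lymphoid libraries, and spleen leads in the red cell and granule lists.

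Trp53 was lower in liver, at 54.6, 55.7 and 34.6 units, than in spleen (107, 91.9 and 98.5) and thymus (129, 107 and 125), a difference of -1.20 ± 0.18 (SE; limma, Benjamini-Hochberg adjusted p = 0.00019). Of 12 targets of p53, 1 was higher and 4 lower in liver, beside 28.8% and 30.7% of all genes. Under plain scaling it was 0 and 10, beside 9322 lower of 15140 genes. Cdkn1a, the p53-induced inhibitor of the cell cycle, was the 1 called higher and was chosen after its values were seen, at 17.7, 34.4 and 147 in liver, 5.46, 7.36 and 9.37 in spleen and 16.5, 11.3 and 16.1 in thymus. Liver 3 was far above livers 1 and 2. In the paired-end table Cdkn1a read 14.5 ± 2.47 (SD, n = 3) in untreated and 117 ± 8.73 in irradiated wt livers, 4.98 ± 1.29 and 157 ± 6.19 in the spleens and 13.0 ± 2.19 and 108 ± 8.60 in the thymuses. Livers 1 and 2 and all 6 single-end lymphoid libraries, although titled xray, thus read nearer to the untreated than to the irradiated paired-end means, and liver 3 nearer to the irradiated one. Summed over the 12 targets, the single-end wt libraries held 231 to 482 units in liver, 317 to 354 in spleen and 752 to 1031 in thymus. Untreated paired-end libraries held 192 to 202, 246 to 258 and 539 to 572, and irradiated ones 644 to 844, 1823 to 1910 and 1884 to 2113. Every single-end wt sum thus lay between the untreated and the irradiated sums of its organ. The tables were normalised separately, and whether these animals were irradiated was not tested.

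The liver contrast was then set against that of the d24 mice in the same table, by a test of the difference between the genotypes. Summed over the 12 p53 targets, the d24 libraries held 493 to 1334 units in liver, 1293 to 1721 in spleen and 1174 to 1375 in thymus. The wt libraries held 231 to 482, 317 to 354 and 752 to 1031. Whether the genotypes also differed in irradiation was not tested, so a call cannot be assigned to genotype alone. Of 16092 genes, 25 (0.155%) had a larger and 33 (0.205%) a smaller liver difference in wt, and 1557 had an unadjusted p under 0.05. Leaving out 1 library moved the count of 58 to between 10 (without wt liver 1) and 179 (without d24 liver 3). None of the 27 tested fetal and juvenile genes was among them. Of all lists, the members called were Hsd3b7 of bile acid synthesis, Mcpt4 and Tpsb2 of mast cells, Itgb3 of platelets, Rag1, Myb and the p53 target Ccng1. The 6 genes with the smallest p were Hamp, Elfn1, Hapln1, Btg2, Atp13a5 and Acmsd. Hamp, the iron hormone hepcidin, read 5.38, 0.166 and 1.51 units in the wt livers and 1199, 422 and 506 in the d24 livers, and the genotypes did not overlap. Its difference of differences was -7.93 ± 0.89 (SE; limma, Benjamini-Hochberg adjusted p = 0.00053), but the count models gave it adjusted p-values of 0.137 (DESeq2) and 1.00 (edgeR).

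Over all 18 single-end libraries, the 8 genes whose log2 level followed that of Afp most closely were Apoa5, Ftcd, Azgp1, Uroc1, Serpina3m, Cfi, F11 and F12, with Pearson correlations of 0.990 to 0.991. All 8 are hepatocyte genes, and the 18 points fall into livers and lymphoid organs, so that the correlation describes that separation and no relation within the livers. Apoa5, an apolipoprotein, read 553, 542 and 201 in the wt livers and 1748, 1742 and 835 in the d24 livers. Ftcd, a folate enzyme, read 349, 294 and 290.3 and 461, 614 and 345, and it was at 0 in all 6 wt lymphoid libraries.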

How the data were processed

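Total RNA of organ pieces kept in RNAlater was extracted with RNeasy and made into libraries with the TruSeq Stranded Total RNA kit, per the labels' protocols. edgeR and the mm10 build are named in the submitters' processing notes; which aligner, counter and strand setting were used is not given in the sources used here. The deposited signal is normalised per library by the authors: its steps gave whole reads for 100% of values (tolerance 0.01), as CPM on a library size with a composition factor. The single-end and paired-end tables were normalised separately, and tests stay within 1 table. In the paired-end table, 18 columns of other samples were not used. Depth was 21222134 to 28552492 reads in the 9 libraries, so 3 reads, the floor used for a group at 0, are 0.0815 to 0.248 units, for counting error only.

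Genes at 1 unit or more in 3 libraries were tested with limma 3.58.1 (R 4.3.3; moderated, with a trend) on log2(signal + 0.5); p-values were adjusted by Benjamini-Hochberg over every gene tested, with 0.05 as the limit. A fold is therefore on the log2(signal + 0.5) scale and understates the change of low genes. Gene numbers were matched to symbols, positions and start windows of RefSeq on GRCm38.p6. On simulated counts for 14851 genes limma recovered 39% of 2-fold and 98% of 4-fold changes in the liver contrast. The simulation gave all genes the same relative spread, held no outlying library and changed only seeded genes above a minimum mean. Recovery in the real libraries may be lower. Same-numbered livers and spleens deviated together (correlations of 0.15 to 0.35), while thymuses did not (-0.07 to 0.03). Liver 1 and spleen 2 also deviated together (0.20), and liver 3 ran opposite to spleens 1 and 2 (-0.26 and -0.29). Liver 3 and spleen 3 both stood apart, so these correlations cannot decide whether the numbers pair livers with spleens. Xist was high in thymuses 1 and 3 and low in livers and spleens 1 and 3, with the reverse for number 2. By Xist, the numbers therefore do not pair a thymus with a liver or spleen of the same animal. The replicate block, run as an alternative, treats them as paired all the same. Alternatives were other pseudocounts, filters and scalings, edgeR 4.0.16 and DESeq2 1.42.0 on the recovered reads, a replicate block, Xist as a covariate and each library left out.

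Genes named are a fixed panel, the 12 genes furthest above and below in the liver contrast and the 6 in the spleen against thymus contrast (mean of 5 units or more, no overlap), the members of the fetal and blood-forming lists, up to 6 members of each other list by smallest p, the 6 smallest p of the genotype difference and the 8 genes most like Afp; others are said to be chosen after seeing values. The members and lists were chosen with earlier results of these data known. Some members of the lists are counted but not reported here by name.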

Additional observations from a re-analysis of the deposited data

Results flagged for a closer look

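For 13 genes the liver difference was not the same in wt and d24 mice by the test of that difference itself (limma, Benjamini-Hochberg adjusted over 16092 genes). It was larger in wt for Atp13a5 (2.88 on the log2 scale), Myb (2.67), Hsd3b7 (2.26), Rag1 (2.73), Mcpt4 (4.20), Ccng1 (1.22) and Tpsb2 (4.19). It was smaller in wt for Hamp (-7.93), Elfn1 (-5.89), Hapln1 (-5.19), Btg2 (-2.52), Acmsd (-3.07) and Itgb3 (-3.14). None changed sign under any of the 30 or 31 alternatives run for it. Btg2 was called in all 31 and Elfn1, Hapln1 and Itgb3 in 30, while Rag1 and Mcpt4 were called in 15 (1.39 to 4.55 and 2.94 to 8.39), Ccng1 in 7 and Tpsb2 in 5. Hsd3b7 was called in 24 and Myb in 23. Hamp and Acmsd lost their calls with edgeR and with DESeq2 alone, and Atp13a5, called in 27 of 30, lost its call with both and under plain scaling, with adjusted p-values up to 1.00 for each of the 3 genes.

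Btg2, a p53-induced inhibitor of proliferation, read 78.9, 69.5 and 89.3 units in the wt livers and 449.9, 589 and 183 in the d24 livers, with no overlap. Acmsd, of tryptophan breakdown, read 3.35, 4.97 and 7.90 and 52.8, 60.0 and 33.8, and Itgb3, the platelet integrin, 16.3, 24.2 and 25.1 and 41.4, 173 and 41.9. Elfn1 and Hapln1 were at most 0.422 and 1.33 in the wt livers and 58.9, 63.4 and 45.8 and 76.5, 14.1 and 26.3 in the d24 livers. Myb, of immature blood cells, read 9.32, 11.9 and 13.0 in the wt livers and 1.99, 0.641 and 0 in the d24 livers. Mcpt4 and Tpsb2, proteases of mast cells, lost their calls without wt liver 3 and wt spleen 3. The treatment field differs between the genotypes for all 3 organs, so that genotype and treatment cannot be told apart if that field is correct. The p53 target sums given above also differed between the genotypes, and a difference in irradiation was not tested.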

How the results depend on the processing

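The count of genes called in the liver contrast (8964) ranged from 7550 to 11356 over the alternatives and from 7855 to 9543 with 1 library left out; for liver against spleen (7438) the ranges were 6438 to 10024 and 6337 to 7922, for liver against thymus (9008) 7652 to 11149 and 8117 to 9682, for spleen against thymus (5467) 4401 to 6395 and 4507 to 5474, and for the paired-end liver contrast (12736) 9683 to 15325 and 12241 to 12673. The replicate block gave 9208, 7778, 9221 and 5753 for the first 4, and no count moved by more than 1.5 times. Plain scaling gave 1849 higher and 8175 lower against spleen and 2293 and 8856 against thymus, as the median of all genes moved to -1.06 and -1.31. The genotype difference (58 genes) was the least stable count: 30 with a pseudocount of 0.1, 105 with 2, 36 with the replicate block, 13 with edgeR, 211 with DESeq2, 38 with plain scaling, 33 without wt liver 3 and wt spleen 3, and 10 to 179 with 1 library left out; the cause was not tested. Of 1653 recomputed values for 69 named results, 9 turned in sign. Plain scaling turned Cpox (-0.39), Fech (-0.87), Igf2bp3 (-0.38) and Meis1 (-0.41) in the liver contrast and Igf2 (-0.43) in the paired-end one, quantile scaling turned Fech (-0.17), and the plain mean of the organ means turned Alad (-0.43), Cpox (-0.67) and Fech (-1.33). The other values either kept their call or, in 70 cases, their sign alone. Differences under 2-fold, and genes of a few reads per library, are beyond what 3 libraries of this depth can show reliably. Treatment, sex and age are not balanced over, or not given for, the organs.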
